A study of Mus musculus with 6 samples.

Results

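Vim, Cdh2, Zeb1, Tpm1, Tagln, Tagln2, Rhoc, S100a6, S100a10 and S100a11 are genes of the mesenchymal cytoskeleton and of the epithelial-mesenchymal transition (EMT). They were picked by name from a deposited table of 13743 entries, in which all 10 have a single entry each. The choice was made with earlier results of these data known. Messenger RNA was sequenced in mouse embryonic stem cells (ESCs) of C57/129 strain and Dgcr8-/- genotype, in 6 libraries that form 3 groups of 2. The miR-294 group received a mimic of that microRNA and the siMbd2 group an siRNA against Mbd2, each at 50 nM, and the CTR group serves as the control. The labels do not say what was put on the CTR wells, which the deposited table names mock. Cells were transfected 16 h after plating and are labelled 48 h. By their genotype label all 3 groups lack Dgcr8, a gene needed to make canonical microRNAs, and no group represents a normal ESC. Dgcr8 itself read 6.66 and 7.14 RPKM in miR-294, 7.24 and 7.34 RPKM in siMbd2, and 7.49 and 8.44 RPKM in CTR, and such gene-level values do not show the deletion. Nothing in the labels states that replicates were separate cultures, so every p-value reflects only how far duplicate libraries differ, which may be technical.

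Epithelial cells hold together through E-cadherin junctions and keratin filaments. In EMT, transcription factors of the ZEB, SNAI and TWIST families repress that programme, N-cadherin and vimentin become more abundant, and actin stress fibres form under the control of small GTPases and serum response factor (SRF). ESCs resemble epithelium in their reliance on E-cadherin, yet they also express vimentin. miR-294 is a member of the ESC microRNA family miR-290, which shares its seed with the miR-302 and human miR-372 families; RHOC is a described target of those in human cells. Mbd2 encodes a protein that binds methylated CpG dinucleotides and recruits the NuRD repressor complex.

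The mature microRNA and the matches to it in the annotated 3' UTRs are shown first, since Vim and Rhoc hold one and most of the 10 genes do not. Capitals mark the seed (bases 2 to 8) in the microRNA and the matched bases in the mRNA windows of 30 bases. The microRNA sequence is from RefSeq (GRCm38.p6, chr7:3220691-3220712, plus strand) and the windows are from GENCODE vM21 transcripts (GRCm38, the assembly also called mm10).
mmu-miR-294-3p: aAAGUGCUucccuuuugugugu
Vim 3' UTR, chr2:13582651-13582658, plus strand: atagaaagaagctcAGCACTTAacaactga
Rhoc 3' UTR, chr3:104794331-104794337, plus strand: ccatattacacaccAGCACTTtatatattt

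The longest annotated 3' UTR of Vim (342 bases) held the 8-base match AGCACTTA at position 168, and that of Rhoc (416 bases) the 7-base match AGCACTT at position 288. Zeb1 held the 7-base match GCACTTA at chr18:5775424-5775430, near the end of a 3' UTR of 2401 bases. The other 7 genes had none of these matches in their longest annotated 3' UTR. Among 10803 tested genes with an annotated 3' UTR (median length 1142 bases), 3.69% held the 8-base match and 20.9% held at least 1 of the 3 matches. A match describes the sequence only, and binding was not measured.

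All 8 ESC marker genes were at 28.4 RPKM or more in every library, but they moved in both directions. With miR-294, 3 rose and 4 fell, and with siMbd2, 5 rose and 2 fell. These and the other marker calls are for RPKM as deposited, and calls of the markers under other scalings are not given. Pou5f1, the gene of OCT4, stood at 1059 and 1056 RPKM (reads scaled to transcript length and library size) in miR-294, 914 and 946 RPKM in siMbd2, and 790 and 689 RPKM in CTR, and rose with both. Nanog stood at 206 and 211 RPKM in miR-294, 297 and 279 RPKM in siMbd2, and 354 and 372 RPKM in CTR, and fell with both. Mbd2 read 11.3 and 12.3 RPKM in miR-294, 7.33 and 6.34 RPKM in siMbd2, and 26.8 and 27.9 RPKM in CTR, so the target of the siRNA was lower where its label says. Mbd2 also fell with miR-294 (limma log2 -1.15, adjusted p = 1.36e-05). Both treatments thus had less Mbd2 RNA than CTR, and siMbd2 had the least. Of 9 markers of feeder fibroblasts 4 could be analysed, and their summed level was 4.89 and 4.44 RPKM in miR-294, 2.22 and 2.32 RPKM in siMbd2, and 2.77 and 2.49 RPKM in CTR. None of the 4 was at 0 in all libraries; Thy1 made up most of the miR-294 sum, and Col1a1 averaged 0.24 RPKM in miR-294, 0.19 RPKM in siMbd2 and 0.07 RPKM in CTR. The summed level of 6 primitive endoderm markers lay between 2.72 and 4.07 RPKM in every library, with opposite moves among them. Gata4 fell with both treatments, to a mean of 0.94 RPKM in miR-294 and 1.95 RPKM in siMbd2, against 2.77 RPKM in CTR. The other 5 were not tested, and Sox7 averaged 1.22 RPKM in miR-294, 0.26 RPKM in siMbd2 and 0.15 RPKM in CTR, Gata6 0.735, 0.13 and 0.165 RPKM, and Dab2 0.785, 0.435 and 0.355 RPKM in the same order. Of 6 primitive streak and mesoderm markers 4 could be analysed. Their summed level was 8.96 and 9.09 RPKM in miR-294, 5.31 and 5.95 RPKM in siMbd2, and 3.74 and 3.73 RPKM in CTR. The 2 that were tested, Eomes and Hand1, rose with miR-294 (log2 0.84 and 1.11). Hand1 also rose with siMbd2 (log2 0.55), and Eomes was not called there (log2 0.23). Smooth muscle markers summed to between 6.80 and 9.76 RPKM, most of it Smtn. The part of these markers in the results below was not tested. The RPKM of all entries summed to between 429460 and 493079 per library; read depth is unknown, so no counting error can be given.

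The miR-294 libraries had the lowest total of the 10 genes. Summed, the genes stood at 632 and 608 RPKM in miR-294, 1194 and 1191 RPKM in siMbd2, and 1031 and 936 RPKM in CTR. That is 0.128% and 0.124% of the summed table in miR-294, 0.254% and 0.256% in siMbd2, and 0.229% and 0.218% in CTR. In these bulk libraries, fewer cells expressing a gene and less RNA of it per cell cannot be told apart. In CTR the order of levels per transcript length ran from S100a11 (mean 229.8 RPKM) through Vim, Tagln2, Tpm1, S100a10, Rhoc, S100a6, Tagln and Zeb1 down to Cdh2 (5.71 RPKM). The neighbours S100a11 and Vim, Vim and Tagln2, and S100a10 and Rhoc overlapped between their CTR libraries, and the other neighbours did not. In siMbd2, S100a6 and S100a10 overlapped each other, and Cdh2 overlapped Zeb1. In miR-294, Vim and Tpm1 overlapped each other.

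**Figure D1:**
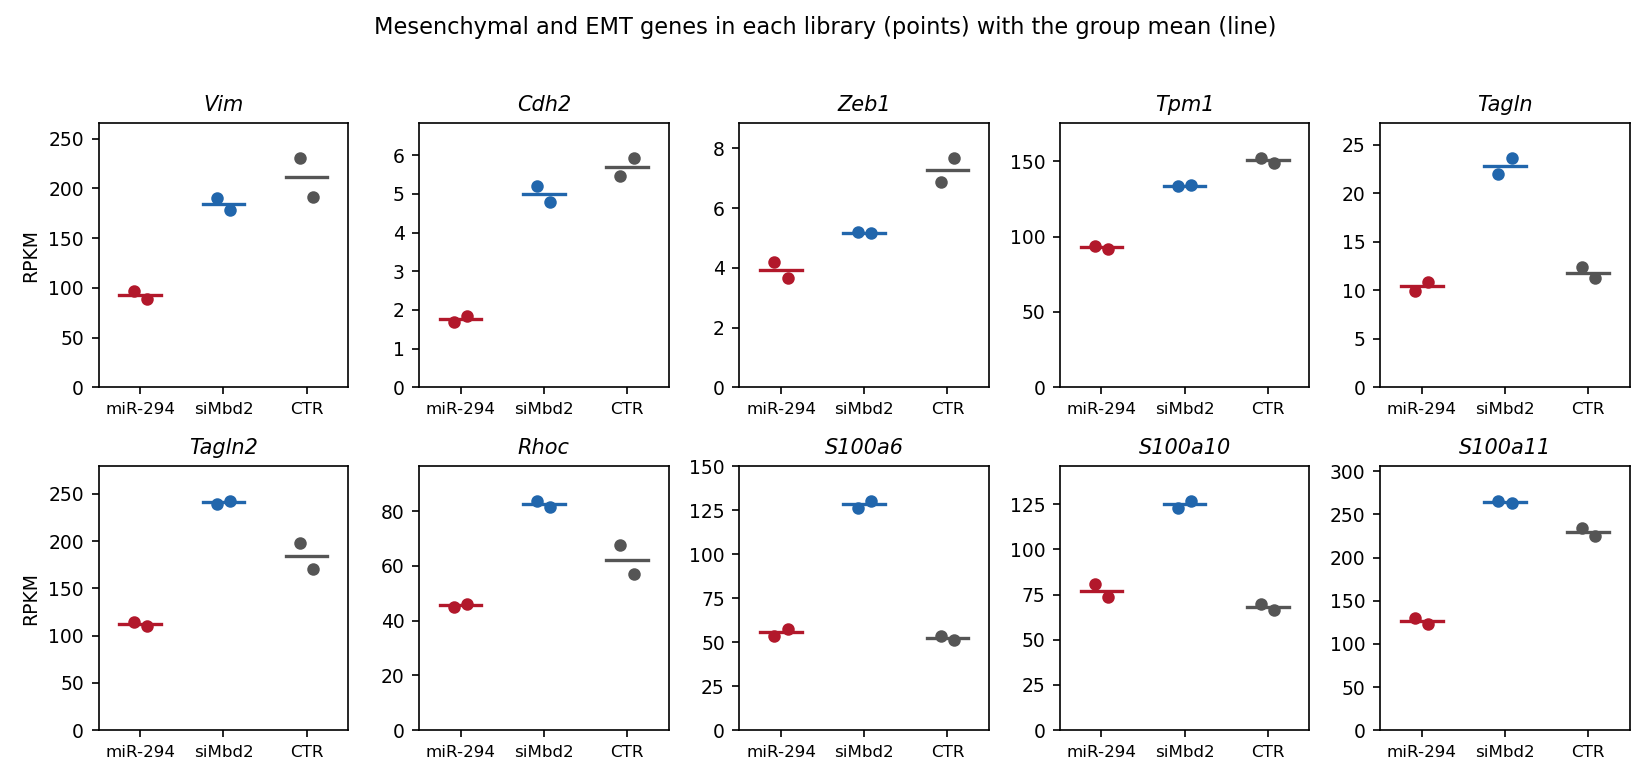
RPKM of each of the 10 genes (y axis, linear from 0, own scale per panel) in the miR-294, siMbd2 and CTR libraries (x axis). Points are single libraries and lines are means of 2; the miR-294 points lie below the siMbd2 points in all 10 panels.

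Tests used log2(RPKM + 1) in one limma model over the 6 libraries, fitted on the 11428 genes that averaged 1 RPKM or more, with the variance allowed to follow the level (the intensity trend). All 10 genes passed this minimum. A gene is said to rise or fall where its Benjamini-Hochberg adjusted p over all tested genes was under 0.05. The scale understates changes of genes with low RPKM, such as Cdh2 and Zeb1. Exact permutation of 2 against 2 libraries has a smallest two-sided p of 0.333, and the calls therefore depend on limma's pooling of variance over genes.

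With miR-294, 7 of the 10 genes fell relative to CTR, against 36.8% of all tested genes, and 1 rose, against 27.7%. Since the 10 genes were chosen with earlier results known, these and later shares of tested genes do not test the set. The 7 were Vim, Cdh2, Zeb1, Tpm1, Tagln2, Rhoc and S100a11, and the gene that rose was S100a10. The median log2 change was -0.70 over the 10 genes and -0.08 over all tested genes. In 8 genes both miR-294 libraries lay below both CTR libraries, which was so for 46.0% of tested genes, and in 1 gene both lay above (35.0%).

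With siMbd2, 6 of the 10 genes rose relative to CTR, against 19.5% of tested genes, and 2 fell, against 14.9%. Those that rose were all 3 S100 genes, both transgelin genes and Rhoc, and those that fell were Zeb1 and Tpm1. The median log2 change was 0.30 over the 10 genes and 0.02 over all. In these 6 genes both siMbd2 libraries lay above both CTR libraries (37.0% of tested genes) and in the other 4 they lay below (30.6%). The treatments share their CTR libraries, so their changes against CTR are given side by side, and the direct comparison of miR-294 with siMbd2 tests their difference.

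In that direct comparison all 10 genes were lower with miR-294, against 35.5% of tested genes, a background and not a test of the set. None was called higher in limma, against 21.9% of tested genes at the same adjusted threshold. None was higher at an unadjusted p under 0.05 either. The median difference was -1.02 (log2) over the 10 genes and -0.08 over all. All 10 genes had both miR-294 libraries below both siMbd2 libraries, as did 49.6% of tested genes, and none had both above, as did 34.5%. Scaling moved the background: the median of all genes was 0.01 after median-of-ratios scaling and 0.03 after quantile normalization. Of all called genes 38.1% were higher as deposited, 50.6% under the first of these scalings and 51.5% under the second. For miR-294 against CTR the split did not move by as much (42.9%, 50.3% and 51.3%). Under either scaling 9 of the 10 genes were lower; the exception was Zeb1 (adjusted p = 0.0586 and 0.291).

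**Figure D2:**
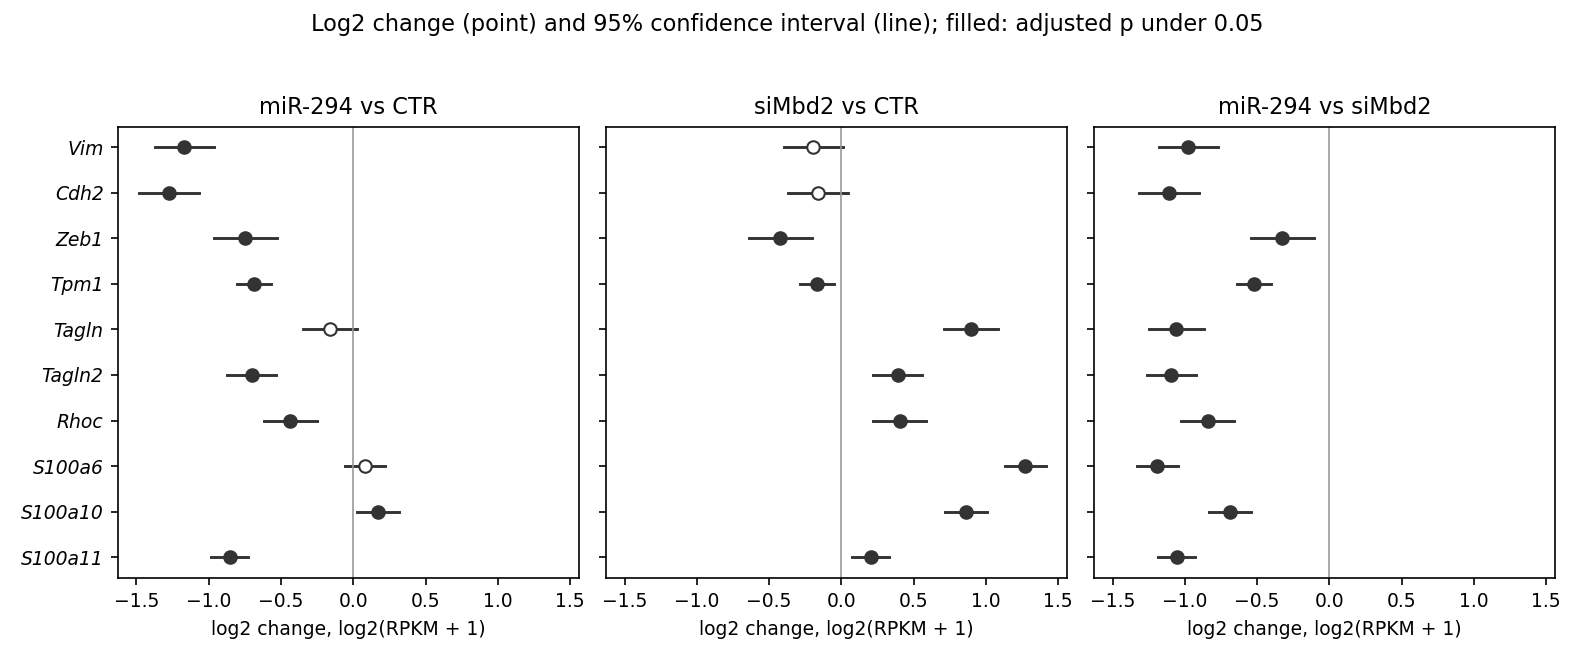
Log2 change on the log2(RPKM + 1) scale (x axis) of each gene (rows) in the 3 comparisons (panels), with 95% confidence intervals as lines. Filled points have an adjusted p under 0.05; all 10 points of miR-294 vs siMbd2 lie left of 0, while in siMbd2 vs CTR 6 filled points lie right of 0 and 2 lie left.

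Vim encodes vimentin, the intermediate filament protein of mesenchymal cells (ENSMUSG00000026728, chr2:13573927-13582826, plus strand). It read 97.0 and 89.1 RPKM in miR-294, 190 and 178 RPKM in siMbd2, and 231 and 192 RPKM in CTR. Both miR-294 libraries lay well below the other 4, and the siMbd2 libraries lay just below CTR. Vim fell with miR-294 by 1.17 on the log2 scale (SE 0.090, adjusted p = 1.43e-05), to 0.441 of its CTR mean. The difference of siMbd2 from CTR was -0.19 (95% confidence interval -0.40 to 0.01, adjusted p = 0.129). Vim passed the threshold with quantile normalization (-0.28, adjusted p = 0.0313), and also when CTR replicate 2 was left out (-0.33, adjusted p = 0.00708). Leaving out CTR replicate 1 gave -0.06 (adjusted p = 0.455). Vim was lower with miR-294 than with siMbd2 by 0.98 on the log2 scale (-0.98, adjusted p = 5.39e-05).

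Cdh2 encodes N-cadherin, the adhesion molecule that replaces E-cadherin in many forms of EMT (ENSMUSG00000024304, chr18:16588877-16809246, minus strand). It stood at 1.7 and 1.84 RPKM in miR-294, 5.2 and 4.78 RPKM in siMbd2, and 5.47 and 5.94 RPKM in CTR. Both miR-294 values were far below all others (ratio 0.310, log2 -1.27, SE 0.091, adjusted p = 1.05e-05). Against siMbd2 the difference was -1.11 (adjusted p = 3.08e-05). Between siMbd2 and CTR it was -0.16 (95% confidence interval -0.37 to 0.04, adjusted p = 0.196). On the log2(RPKM + 1) scale, Vim and Cdh2 had the closest pair of profiles among the 10. Their Euclidean distance was 0.333 (log2) over the 6 libraries after centring on CTR. That scale compresses Cdh2: with 0.1 added in place of 1, the change with miR-294 was -1.63 for Cdh2 and -1.18 for Vim. Distances were not computed with 0.1 added, so the rank of this pair holds only for the scale used.

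Cdh1, the E-cadherin gene, fell with miR-294 as Cdh2 did, and rose with siMbd2. Cdh1 read 58.4 and 55.3 RPKM in miR-294, 110 and 114 RPKM in siMbd2, and 92.7 and 90.8 RPKM in CTR, with no overlap between the 3 groups. The log2 change was -0.68 with miR-294 (adjusted p = 2.06e-05) and 0.28 with siMbd2 (adjusted p = 0.00678). Of 7 tested cadherin and catenin genes, 3 fell and 2 rose with miR-294 (median log2 -0.04), and none fell and 2 rose with siMbd2 (median 0.16). The background for this and every later list is the share of all tested genes. With miR-294, 36.8% fell and 27.7% rose, and with siMbd2, 14.9% fell and 19.5% rose. Jup, the gene of plakoglobin, fell with miR-294 to a mean of 35.1 RPKM, against 76.4 RPKM in CTR, while Ctnna1 and Ctnnb1, the α- and β-catenin genes, rose by 0.19 and 0.18 (log2). Neither catenin gene was called after quantile normalization (-0.02 and -0.08, adjusted p = 0.71 and 0.202), and the list's median was 0.01 with median-of-ratios scaling.

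Zeb1 encodes a zinc finger repressor of E-cadherin and a central EMT regulator (ENSMUSG00000024238, chr18:5591860-5775467, plus strand). Its level was low, at 4.21 and 3.67 RPKM in miR-294, 5.2 and 5.16 RPKM in siMbd2, and 6.88 and 7.69 RPKM in CTR. The 3 groups did not overlap, with siMbd2 between the others. Of its 10266 annotated exonic bases, 198 are shared with the opposite-strand gene Gm10125, not analysed here. Zeb1 fell with miR-294 (log2 -0.75, SE 0.095, adjusted p = 1.85e-04) and with siMbd2 (log2 -0.42, adjusted p = 0.0108). The siMbd2 call ended without either siMbd2 library (adjusted p = 0.0651 and 0.0782). The fall was larger with miR-294 than with siMbd2 by 0.33 on the log2 scale (-0.33, 95% confidence interval -0.54 to -0.11, adjusted p = 0.0174). That difference also missed the threshold without miR-294 replicate 2 (-0.25, adjusted p = 0.141) and without either siMbd2 library (adjusted p = 0.0880 and 0.0801).

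Other EMT transcription factors had low levels and moved in both directions. Of 13 such genes 5 could be tested; with miR-294, 4 fell and 1 rose, and with siMbd2, 2 fell and 1 rose. The medians were -0.53 and -0.23 (log2). Snai1, which also represses E-cadherin, rose in both treatments, at 2.51 and 1.97 RPKM in miR-294, 2.17 and 2.54 RPKM in siMbd2, and 1.64 and 1.21 RPKM in CTR (adjusted p = 0.0183 for miR-294 and 0.0222 for siMbd2). Twist1, a basic helix-loop-helix factor, fell in both, to means of 2.93 RPKM in miR-294 and 3.59 RPKM in siMbd2, against 4.69 RPKM in CTR, though the siMbd2 call was lost after quantile normalization (adjusted p = 0.0576). Tcf4 fell with miR-294 by 0.40 on the log2 scale, but by 0.18 and without a call after quantile normalization (-0.18, adjusted p = 0.159). Zeb2 (0.70, 0.50 and 0.78 RPKM in miR-294, siMbd2 and CTR) and Snai2 stayed under the minimum of 1 RPKM and were not tested.

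Of 7 tested factors known to restrain EMT, 1 rose and 3 fell with miR-294, and 3 rose and none fell with siMbd2 (medians -0.34 and 0.18). Grhl2, an activator of epithelial genes, rose in both treatments, to 9.36 RPKM in miR-294 and 7.94 RPKM in siMbd2, against 4.33 RPKM in CTR. Esrp1, an epithelial splicing regulator picked out after its values were seen, averaged 12.1 RPKM in miR-294 and 11.8 RPKM in CTR and rose to 17.8 RPKM in siMbd2. Its relative Esrp2 fell to 1.77 RPKM in miR-294 and rose to 6.39 RPKM in siMbd2, against 5.07 RPKM in CTR, and Elf3, an ETS factor of epithelia, fell with miR-294 (log2 -1.23).

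Tpm1 encodes a tropomyosin, a coiled-coil protein that lies along actin filaments (ENSMUSG00000032366, chr9:67022590-67049406, minus strand). Its level was 94.1 and 91.9 RPKM in miR-294, 133 and 135 RPKM in siMbd2, and 153 and 149 RPKM in CTR. The 3 groups were separate, in that order from low to high, and replicates lay close together. Tpm1 fell with miR-294 (log2 -0.69, SE 0.051, adjusted p = 1.27e-05), and its level there was below siMbd2 by 0.52 on the log2 scale (-0.52, adjusted p = 7.49e-05). The fall with siMbd2 was small (log2 -0.17, ratio 0.889, adjusted p = 0.0353). It missed the threshold without either miR-294 library (adjusted p = 0.0930 and 0.0929), without either siMbd2 library (adjusted p = 0.196 and 0.184), without the intensity trend (adjusted p = 0.0854) and with the 4 libraries alone (adjusted p = 0.0936).

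Among the other tropomyosin genes, Tpm4 fell with miR-294 to 45.8 and 45.2 RPKM, against 98.8 and 99.2 RPKM in siMbd2 and 92.0 and 97.5 RPKM in CTR (log2 -1.04 against CTR, adjusted p = 3.02e-06). Tpm2 fell in both treatments (log2 -0.36 with miR-294 and -0.33 with siMbd2), and their difference was -0.03 (95% confidence interval -0.21 to 0.15). Tpm3 read 214 and 216 RPKM in miR-294, 240 and 244 RPKM in siMbd2, and 236 and 230 RPKM in CTR (adjusted p = 0.0795 for miR-294 against CTR), and it fell with miR-294 after quantile normalization (-0.40, adjusted p = 1.32e-04).

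Tagln encodes transgelin (SM22), an actin-bundling protein of smooth muscle and a classical SRF target (ENSMUSG00000032085, chr9:45929619-45936058, minus strand). It read 9.95 and 10.9 RPKM in miR-294, 22.0 and 23.7 RPKM in siMbd2, and 12.3 and 11.2 RPKM in CTR. The siMbd2 libraries were far above all others (1.94 times the CTR mean), and the miR-294 libraries lay just under CTR. Tagln rose with siMbd2 (log2 0.90, SE 0.083, adjusted p = 3.57e-04). The difference of miR-294 from CTR was -0.16 (95% confidence interval -0.35 to 0.03, adjusted p = 0.116), and -0.23 when CTR replicate 2 was left out (adjusted p = 0.0372). Quantile normalization turned its sign, at a value near 0 (0.00051, adjusted p = 0.996). Of 1988 annotated exonic bases of Tagln, 108 are shared with Pcsk7 on the opposite strand, and 1241 with the antisense gene Gm48529, not analysed here. The sources used here do not state whether counting used strand, and without strand such reads cannot be told apart. Pcsk7 read 3.56 and 3.42 RPKM in miR-294, 4.66 and 4.15 RPKM in siMbd2, and 3.59 and 3.79 RPKM in CTR.

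Tagln2, a broadly expressed transgelin (ENSMUSG00000026547, chr1:172500047-172507380, plus strand), stood far above Tagln in every library. It stood at 115 and 110 RPKM in miR-294, 239 and 243 RPKM in siMbd2, and 198 and 170 RPKM in CTR. No groups overlapped, with miR-294 below CTR and siMbd2 above it. Tagln2 fell with miR-294 (log2 -0.70, SE 0.074, adjusted p = 6.76e-05) and rose with siMbd2 (log2 0.39, adjusted p = 0.00528; 0.38, adjusted p = 0.0534, without siMbd2 replicate 2). The treatments differed by -1.09 for Tagln2 (adjusted p = 1.25e-05) and by -1.06 for Tagln (adjusted p = 2.46e-05). Tagln3, the neuronal relative, fell in both treatments, to 2.03 RPKM in miR-294 and 4.55 RPKM in siMbd2, against 6.30 RPKM in CTR.

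Of 28 tested actin filament and tropomyosin genes besides Tpm1, Tagln and Tagln2, 6 rose and 10 fell with miR-294 (median -0.11), while 14 rose and 3 fell with siMbd2 (median 0.23). Scaling moved the miR-294 counts, to 8 higher and 9 lower with median-of-ratios scaling and 2 higher and 17 lower after quantile normalization. With miR-294 set against siMbd2, 20 were lower and 2 higher (median -0.44), where 35.5% and 21.9% of all tested genes were. Actn4, an α-actinin gene, and Cfl1, the gene of the actin-severing protein cofilin, rose in both treatments; Cfl1 averaged 805 RPKM in miR-294, 743 RPKM in siMbd2 and 570 RPKM in CTR, and its change with miR-294 was 0.07 after quantile normalization (adjusted p = 0.266). Myl9 and Csrp1 were picked out after their values were seen. Myl9, a regulatory myosin light chain gene, read 3.95 and 4.22 RPKM in miR-294, 13.62 and 13.95 RPKM in siMbd2, and 6.04 and 4.27 RPKM in CTR (siMbd2 log2 1.28, adjusted p = 4.98e-04). Csrp1, a LIM protein gene of the actin cytoskeleton, fell to 29.9 RPKM in miR-294 and rose to 90.7 RPKM in siMbd2, against 53.8 RPKM in CTR. The smooth muscle genes Acta2 and Cnn1 stayed low, with means of 1.69 and 0.65 RPKM in miR-294, 0.49 and 0.32 RPKM in siMbd2, and 0.74 and 0.26 RPKM in CTR, and were not tested. Srf rose in both treatments (log2 0.25 with miR-294 and 0.37 with siMbd2), whereas its cofactor genes Mkl1 and Mkl2 fell with miR-294 (log2 -0.36 and -0.90) and differed by 0.06 and -0.03 with siMbd2 (adjusted p = 0.669 and 0.902). The Mkl1 call was lost after quantile normalization (-0.15, adjusted p = 0.176).

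Rhoc encodes a small GTPase that drives actomyosin contraction and cell motility (ENSMUSG00000002233, chr3:104788375-104794459, plus strand). It read 45.1 and 46.2 RPKM in miR-294, 83.9 and 81.4 RPKM in siMbd2, and 67.6 and 57.0 RPKM in CTR. The groups did not overlap, with CTR between the treatments and its replicates the farthest apart. Rhoc fell with miR-294 (log2 -0.44, SE 0.080, adjusted p = 0.00148) and rose with siMbd2 (log2 0.41, adjusted p = 0.00631; 0.38, adjusted p = 0.0537, without siMbd2 replicate 1). The treatments differed by -0.84 (adjusted p = 6.40e-05).

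Rhob, an inducible relative of Rhoc, fell with miR-294 to 9.76 and 9.30 RPKM, against 26.1 and 28.0 RPKM in siMbd2 and 25.8 and 26.7 RPKM in CTR. Its difference between siMbd2 and CTR was 0.04 (adjusted p = 0.689). Rhoa, which drives stress fibre formation, fell by 0.24 on the log2 scale with miR-294 and differed by -0.03 with siMbd2 (adjusted p = 0.72).

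S100a6, S100a10 and S100a11 encode small EF-hand proteins that bind annexins, and all lie on chromosome 3. S100a6 (calcyclin, ENSMUSG00000001025, chr3:90612882-90624181, plus strand) is in the main S100 cluster, and S100a11 (ENSMUSG00000027907, chr3:93520488-93526287, plus strand) and S100a10 (ENSMUSG00000041959, chr3:93555080-93564643, plus strand) are neighbours outside it.

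S100a6 had the largest rise among the 10 genes. It read 53.5 and 57.8 RPKM in miR-294, 126 and 131 RPKM in siMbd2, and 53.8 and 51.2 RPKM in CTR. The miR-294 and CTR libraries overlapped, and the siMbd2 libraries stood far above both. The log2 change with siMbd2 was 1.27 (SE 0.062, adjusted p = 5.05e-05), a ratio of 2.44. With miR-294 it was 0.08 (95% confidence interval -0.06 to 0.22, adjusted p = 0.273); median-of-ratios scaling gave 0.16 (adjusted p = 0.0425) and quantile normalization -0.03 (adjusted p = 0.701).

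S100a10, whose product p11 pairs with annexin A2, also rose with siMbd2. It stood at 80.8 and 73.6 RPKM in miR-294, 123 and 127 RPKM in siMbd2, and 70.1 and 66.7 RPKM in CTR. No groups overlapped, but the miR-294 libraries lay close to CTR. The log2 change with siMbd2 was 0.86 (SE 0.064, adjusted p = 1.77e-04). The rise with miR-294 was small (log2 0.17, adjusted p = 0.0423) and missed the threshold after quantile normalization (0.0047, adjusted p = 0.95). It missed it as well when CTR replicate 2 was left out (0.14, adjusted p = 0.0811), without miR-294 replicate 1 (0.10, adjusted p = 0.323), and without either siMbd2 library (adjusted p = 0.0830 and 0.0832). It also missed the threshold without the intensity trend (adjusted p = 0.0828) and with the 4 libraries alone (adjusted p = 0.0841).

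S100a11, which binds annexin A1, fell with miR-294, which its neighbour did not. It read 130 and 123 RPKM in miR-294, 266 and 263 RPKM in siMbd2, and 234 and 225 RPKM in CTR. The miR-294 libraries lay far below the other 4, and siMbd2 lay above CTR by a small margin. The fall with miR-294 was clear of the replicate spread (log2 -0.85, SE 0.055, adjusted p = 7.02e-06). The rise with siMbd2 was small (log2 0.20, adjusted p = 0.0236) and missed the threshold with quantile normalization (0.10, adjusted p = 0.145), without either miR-294 library (adjusted p = 0.0566 for each), and without either siMbd2 library (adjusted p = 0.148 and 0.135). It also missed the threshold without the intensity trend (adjusted p = 0.0587) and with the 4 libraries alone (adjusted p = 0.0580). The direct difference of miR-294 from siMbd2 was -1.06 for S100a11 (adjusted p = 5.63e-06), -1.19 for S100a6 (adjusted p = 5.43e-06) and -0.69 for S100a10 (adjusted p = 5.45e-05).

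Among the annexin partners, Anxa2 read 28.2 and 26.7 RPKM in miR-294, 55.0 and 50.4 RPKM in siMbd2, and 38.3 and 37.5 RPKM in CTR, falling with miR-294 (log2 -0.45) and rising with siMbd2 (log2 0.46). Anxa1 fell to 7.03 RPKM in miR-294 and averaged 15.7 RPKM in siMbd2, against 13.6 RPKM in CTR. Cacybp, which encodes a calcyclin-binding protein, rose with miR-294 (log2 0.67, adjusted p = 1.24e-04) and differed by 0.08 with siMbd2 (adjusted p = 0.458). In the main S100 cluster, S100a1 fell with miR-294 to 2.36 and 1.57 RPKM, against 6.36 and 4.38 RPKM in siMbd2 and 8.11 and 5.98 RPKM in CTR, S100a13 fell with miR-294 and rose with siMbd2 (log2 -0.47 and 0.41), and S100a16 rose with miR-294 (log2 0.74). Of all 11 tested S100 and annexin-related genes outside the set, 3 rose and 6 fell with miR-294 (median -0.39), and 3 rose and none fell with siMbd2 (median 0.18). Anxa6 rose with miR-294, at 31.0 RPKM against 13.9 RPKM in CTR.

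**Figure D3:**
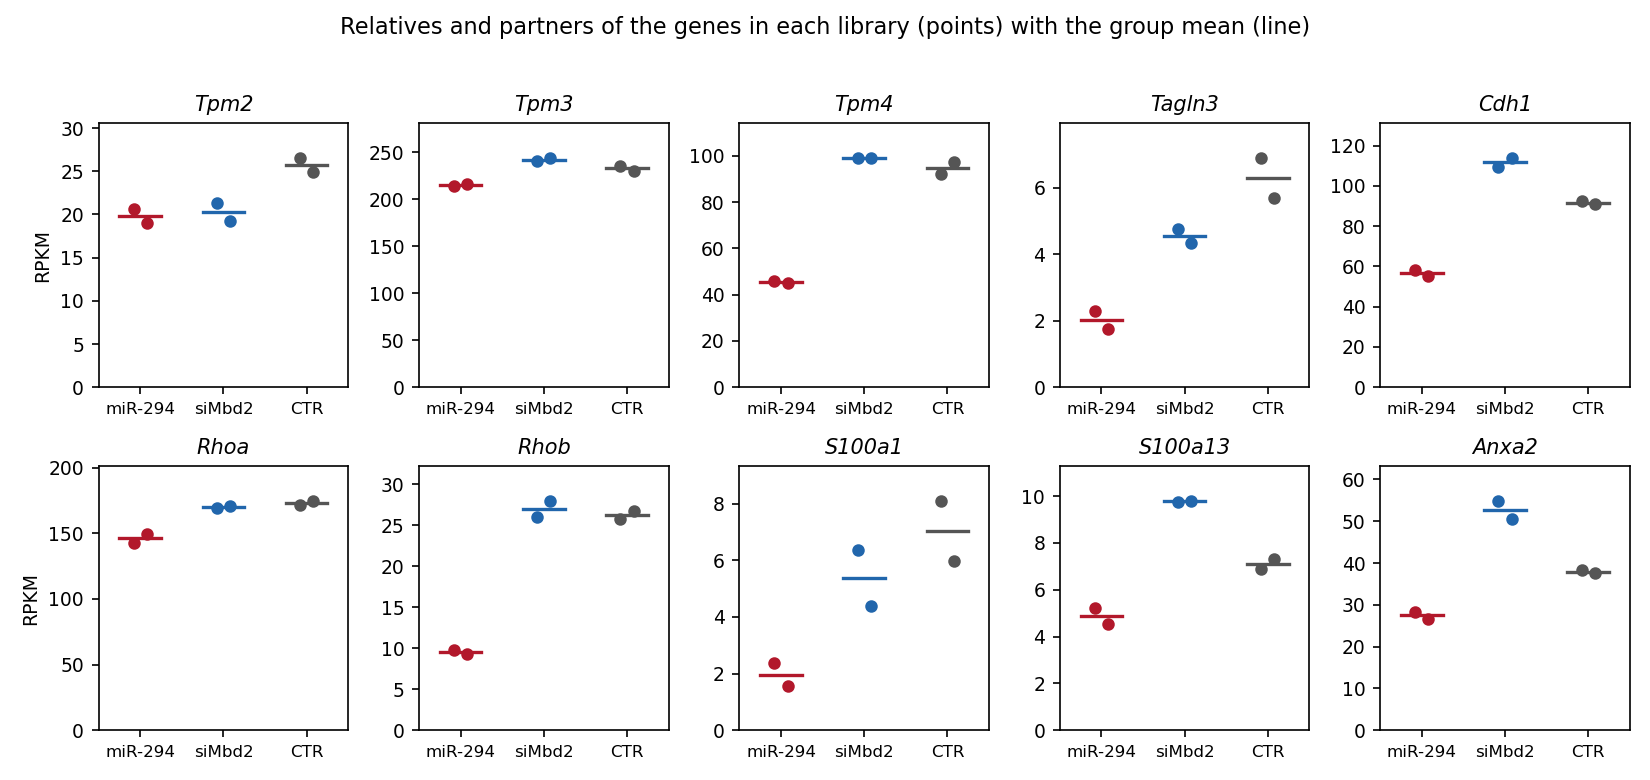
RPKM of 10 relatives or partners of the genes (y axis, linear from 0, own scale per panel) in the miR-294, siMbd2 and CTR libraries (x axis), with points for libraries and lines for means of 2. Tpm4 and Rhob are low in miR-294 alone (45.5 and 9.53 RPKM on average), Cdh1, S100a13 and Anxa2 order as miR-294, CTR, siMbd2 from low to high, and Tpm2 is lower in both treatments than in CTR.

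By their calls against CTR the 10 genes form 4 patterns. These depend on the threshold: with siMbd2, Vim was not called at -0.19 (log2), whereas Tpm1 was called at -0.17. In Vim, Cdh2, Zeb1 and Tpm1 alike, both siMbd2 libraries lay below both CTR libraries. The siMbd2 calls of S100a11, Tagln2, Rhoc, Zeb1 and Tpm1 were each lost in some of the alternatives given above, and Vim gained a call in some. S100a11, Tagln2 and Rhoc fell with miR-294 and rose with siMbd2, a combination that 2.38% of tested genes had. Vim and Cdh2 fell with miR-294 and were not called with siMbd2, as did 23.8% of tested genes. Zeb1 and Tpm1 fell with both, as did 10.6%. S100a6, S100a10 and Tagln rose with siMbd2 and were not called lower with miR-294, as did 17.1%. In 8 genes both miR-294 libraries lay below the other 4 libraries (38.3% of tested genes), and in 6 genes both siMbd2 libraries lay above the other 4 (18.6%).

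Promoters are shown for S100a6 and S100a11, which both rose with siMbd2 and differ in CpG content; methylation was not measured. The sequences are the 250 bases before the RefSeq start (GRCm38.p6), of which the last 12 for S100a6 and the last 8 for S100a11 lie past the GENCODE start given above, with CpG dinucleotides in capitals.
S100a6, chr3:90612644-90612893, plus strand: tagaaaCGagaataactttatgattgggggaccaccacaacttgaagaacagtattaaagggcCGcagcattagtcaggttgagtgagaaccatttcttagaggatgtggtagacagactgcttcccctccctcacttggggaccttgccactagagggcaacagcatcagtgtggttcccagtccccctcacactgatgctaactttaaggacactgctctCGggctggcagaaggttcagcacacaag
S100a11, chr3:93520246-93520495, plus strand: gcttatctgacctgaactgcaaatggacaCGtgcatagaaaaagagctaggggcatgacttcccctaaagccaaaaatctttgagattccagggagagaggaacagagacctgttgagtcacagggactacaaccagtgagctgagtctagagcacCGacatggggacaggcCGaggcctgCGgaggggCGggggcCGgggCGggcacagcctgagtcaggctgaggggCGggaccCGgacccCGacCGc

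The printed S100a6 stretch holds 3 CpG dinucleotides and that of S100a11 holds 11. The full window spans 300 bases, from 250 before to 50 after the RefSeq start. In it S100a6 had 6 CpG dinucleotides, Vim 11, S100a11 15, Tagln2 18, Rhoc 25 and Tpm1 27, where the median of 32851 windows was 7. The windows of Vim and Rhoc lie wholly inside their GENCODE genes, and those of Tagln2 and Tpm1 lie mostly inside theirs. Counts for Vim, Rhoc, Tagln2 and Tpm1 therefore come largely from within the annotated gene. The 32851 windows are all promoter entries, whether or not the gene was tested here, unlike the 3' UTR background of tested genes. Promoter entries were matched for the 6 genes named, and not for Cdh2, S100a10, Tagln and Zeb1. The 4 that rose with siMbd2 among them thus ranged from 6 to 25, and Tpm1, which fell, had 27. None of the 6 windows held a CArG box, the SRF motif, which 1.63% of all windows hold. None held CAGGTG or its complement CACCTG, a letter string bound by ZEB and SNAI factors, which 20.2% of windows hold. These letters were sought on both strands, and their absence from a window says nothing of sites elsewhere.

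Genes of the mesenchymal surface and matrix outside the 10 were tested in 14 cases: with miR-294, 9 fell and 2 rose (median -0.54), and with siMbd2, 3 fell and 5 rose (median 0.02). Itgb1, the β1 integrin gene, fell with miR-294 to 68.5 and 69.7 RPKM, against 127 and 130 RPKM in siMbd2 and 123 and 136 RPKM in CTR. Mmp14, a membrane-bound matrix metalloprotease gene, fell with miR-294 (log2 -0.92) and rose with siMbd2 (log2 0.34). Lgals1, which encodes galectin-1, rose in both treatments, to 71.7 RPKM in miR-294 and 79.3 RPKM in siMbd2, against 45.7 RPKM in CTR. Ctgf, a matricellular gene, rose with miR-294 (log2 0.42).

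Of 14 tested intermediate filament genes other than Vim, 7 rose and 3 fell with miR-294 (median 0.16), and 8 rose and none fell with siMbd2 (median 0.48). The list holds lamin genes and epithelial keratin genes besides neurofilament genes, and its counts are not those of mesenchymal filaments alone. Keratin genes were among those that rose with siMbd2. The neurofilament genes Nefl and Nefm led with miR-294; Nefl stood at 31.0 and 30.1 RPKM in miR-294, 18.3 and 20.1 RPKM in siMbd2, and 9.86 and 11.4 RPKM in CTR. Lmna, the lamin A/C gene, and Prph, the peripherin gene, fell with miR-294 (log2 -0.62 and -0.29), Prph with no call under median-of-ratios scaling (-0.22, adjusted p = 0.0733) or quantile normalization (-0.06, adjusted p = 0.59). Of 10 tested genes of TGF-β input, 6 fell and 1 rose with miR-294 (median -0.29), among them the receptor gene Tgfbr1 (log2 -0.88) and Skil (log2 -0.30), and 2 fell and 2 rose with siMbd2 (median -0.002).

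**Figure D4:**
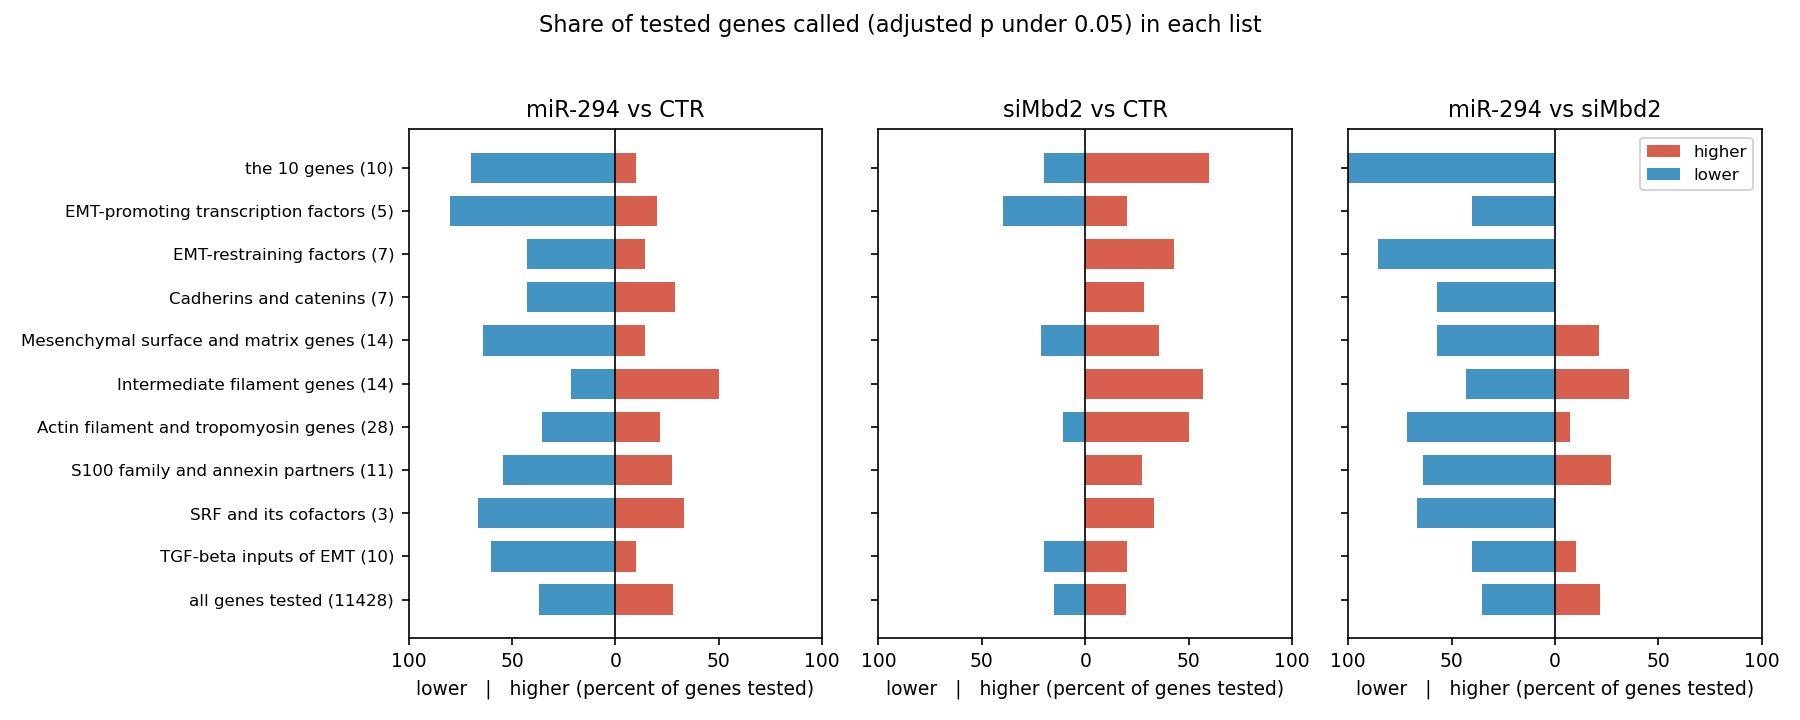
Percent of the tested genes of each list (rows, number tested in parentheses) that were called higher (right of 0) or lower (left of 0) in the 3 comparisons (panels), with all tested genes in the bottom row. All 10 genes of the set and 20 of 28 other actin filament genes were lower with miR-294 than with siMbd2, against 35.5% of all tested genes.

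The genes with the most similar profiles to 3 of the 10 were sought among 8397 or 8398 others that averaged 5 RPKM or more, by Euclidean distance between log2 values of the 6 libraries centred on CTR. Nearest to Vim were Ctsa (distance 0.126), Fgfrl1, Susd1, Mov10 and Gramd1a. Nearest to Cdh2 were Prr11 (0.130), Cdk19, Kmt2e, Whsc1 and March2. Nearest to Rhoc were Tubb6 (0.0714), a tubulin gene, then Gyltl1b, Snx8, Mapkapk2 and Uchl1. Tubb6 read 37.2 and 38.2 RPKM in miR-294, 71.5 and 70.4 RPKM in siMbd2, and 55.5 and 48.7 RPKM in CTR. Within the set the next closest pairs after Vim and Cdh2 were S100a11 and Tagln2 (0.361), Tagln2 and Rhoc (0.387), and Zeb1 and Tpm1 (0.398).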

How the data were processed

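The deposited table holds 1 RPKM value per gene and library (6 columns) and, per the file headers, 2 columns of the authors' fold, a ratio of RPKM over mock. For the 10 genes all 20 deposited folds lay within 0.01 of ratios of recomputed means. The submitters' processing notes name CASAVA 1.7, STAR 2.3.0, Cufflinks and mm10, without the role of each; those notes leave out the annotation, the strand setting and the read depth, and each sample is described as an average of lanes. Planned tests assumed FPKM or RPKM, so the test was kept.

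The 11428 genes averaging 1 RPKM or more were fitted as log2(RPKM + 1), using R 4.3.3 and limma 3.58.1 with a mean-variance trend, 3 groups, 3 residual and 5.38 prior degrees of freedom, two-sided, and Benjamini-Hochberg adjustment over all tested genes within a comparison. The procedure was tested on simulated data. Alternatives covered pseudocount, minimum level, scaling, trend, libraries in the fit, a replicate block and leaving out each library. Sites, promoters and figures used Python 3.11.15, pandas 2.3.3 and matplotlib 3.10.9 with GENCODE vM21 and RefSeq tables. Genes of the lists were named by a rule: per list, up to 2 called higher and 2 called lower with the largest change with miR-294 and at least 5 RPKM in the higher group, plus relatives of the 10. The 10 genes and all lists were chosen with earlier results of these data known. The lists give counts only, with no set test. A list fixed with the others and some listed genes are not reported here.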

Additional observations from a re-analysis of the deposited data

How the results depend on the processing

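Over 15 alternatives, 411 of 447 recomputed log2 changes of the 10 genes kept direction and side of the threshold, 29 lost a call, 5 gained one and 2 turned. Those that turned were small differences of miR-294 from CTR with quantile normalization, for S100a6 (-0.028) and Tagln (0.00051), neither called. The cause was not tested. Genes of the 10 higher in miR-294 vs CTR numbered 1, and 2 with median-of-ratios scaling, 0 with quantile normalization, 0 without the intensity trend, 0 with only the 4 libraries compared, and 0 to 1 when leaving out 1 library. Genes of the 10 lower in siMbd2 vs CTR numbered 2, 1 without the intensity trend, 1 with only the 4 libraries compared, and 0 to 3 when leaving out 1 library. Genes of the 10 lower in miR-294 vs CTR ranged from 6 to 7, or 7 to 8 when leaving out 1 library, genes of the 10 higher in siMbd2 vs CTR from 5 to 6, or 4 to 6, and genes of the 10 lower in miR-294 vs siMbd2 from 9 to 10 in both. All genes called in siMbd2 vs CTR numbered 3933, and 1410 to 5402 when leaving out 1 library (1856 without siMbd2 replicate 1 and 1410 without siMbd2 replicate 2). Cdh2 had a mean under 5 RPKM and gave no value at that minimum. With 1 library left in a group, it is assumed to vary like the other groups. The other scalings of the pathway lists, chosen after seeing the data, moved the list medians for miR-294 vs siMbd2 to 0.02 and 0.04 for intermediate filament genes, against -0.07 as deposited, and for siMbd2 vs CTR to -0.03 after quantile normalization for mesenchymal surface and matrix genes, against 0.02.

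The labels do not say whether replicate numbers pair the libraries, and the main model took them as unpaired. Deviations of same-numbered libraries correlated across genes at 0.119 for miR-294 and CTR, 0.132 for siMbd2 and CTR, and 0.0218 for miR-294 and siMbd2. With duplicates only, these values cannot decide on pairing. With the replicate block 7 genes of the 10 were lower and 1 higher in miR-294 vs CTR, 3 lower and 6 higher in siMbd2 vs CTR (Vim added, adjusted p = 0.0383), and 10 lower in miR-294 vs siMbd2; called genes numbered 7605, 4305 and 6815, against 7366, 3933 and 6561. Replicates differed by a median (log2) of 0.0626 in miR-294 libraries, 0.0602 in siMbd2 libraries and 0.136 in CTR libraries.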
